A study of Homo sapiens with 3 samples.

Results

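Mitosis and spindle genes were examined in HT29 cells as a set of 40 genes whose products drive entry into mitosis, build the spindle, police chromosome attachment or divide the cell. Members were taken from the array table as every probe set that the platform annotation pairs with exactly 1 of these genes, which gave 84 probe sets covering all 40 members out of 19775 genes read by at least 1 probe set annotated to them alone. One further probe set, annotated to CENPA and a neighbouring gene together, was left out. Each member was represented by its probe set with the highest average signal, and all 40 lay above the filter on low signal (a log2 value of 5.13, the median of all probe sets besides controls), as did 12444 genes in all. The cells were HT29, an established human colorectal adenocarcinoma line, transduced by lentivirus with a miR-146a expression construct (2 arrays, labelled replicates 1 and 2) or with an empty vector (1 array). Both groups carry a lentiviral integration. Neither the promoter that drives the construct nor whether the cells were a pool or 1 clone is stated in the labels. Nothing states that the 2 miR-146a arrays came from separate cultures, so the p-values below rest on the spread of these samples alone, and that spread may be technical. The vector group has no second array.

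Entry into mitosis is set by CDK1 bound to cyclin B, after CDC25 phosphatases remove its inhibitory phosphates. Aurora and Polo-like kinases then mature the centrosomes and, with kinesins, form the spindle, while the checkpoint kinases hold the anaphase-promoting complex in check until every kinetochore is attached. Most of these genes are transcribed together in G2 under FOXM1 and the MuvB and B-MYB complex, through promoters that often carry a cell cycle homology region (TTTGAA) and CCAAT boxes, so their transcripts are widely read as a sign of cycling cells. In a bulk RNA sample, fewer cells in G2 and mitosis and less transcript per cell cannot be told apart.

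The expressed microRNA is shown first, with its seed (bases 2 to 8) in capitals, because it is the difference between the groups. RefSeq places it at chr5:160485372-160485393 on the plus strand of GRCh38.p14. Its own level was not analysed here.
hsa-miR-146a-5p: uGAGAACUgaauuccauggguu

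Promoter stretches from 150 bases before to 50 after the annotated start (RefSeq, GRCh38.p14) are given for BUB1, ANLN and DLGAP5, the members with the lowest mean differences, and for KIF4A, the member with the highest mean difference among those in the promoter table. Capitals mark TTTGAA and CCAAT on either strand (TTCAAA and ATTGG on the other), and the 2 motifs do not overlap in these 4 stretches.
BUB1, chr2:110678014-110678213, minus strand: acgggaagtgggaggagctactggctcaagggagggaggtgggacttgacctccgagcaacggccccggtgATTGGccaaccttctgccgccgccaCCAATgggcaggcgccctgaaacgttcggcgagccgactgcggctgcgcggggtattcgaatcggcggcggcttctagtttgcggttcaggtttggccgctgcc
ANLN, chr7:36389712-36389911, plus strand: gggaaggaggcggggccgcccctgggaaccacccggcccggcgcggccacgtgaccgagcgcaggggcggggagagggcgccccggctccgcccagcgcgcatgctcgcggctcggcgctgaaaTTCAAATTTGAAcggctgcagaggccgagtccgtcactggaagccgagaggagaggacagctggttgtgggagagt
DLGAP5, chr14:55191536-55191735, minus strand: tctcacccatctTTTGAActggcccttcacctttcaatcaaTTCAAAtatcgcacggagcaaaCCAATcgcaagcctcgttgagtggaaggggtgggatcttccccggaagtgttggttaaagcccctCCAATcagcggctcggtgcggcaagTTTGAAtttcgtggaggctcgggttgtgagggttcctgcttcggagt
KIF4A, chrX:70289954-70290153, plus strand: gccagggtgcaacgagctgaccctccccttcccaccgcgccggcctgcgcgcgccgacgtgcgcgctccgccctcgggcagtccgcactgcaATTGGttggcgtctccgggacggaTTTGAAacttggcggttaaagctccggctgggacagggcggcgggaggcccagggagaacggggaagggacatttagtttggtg

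The stretch of DLGAP5 held 3 matches to TTTGAA and 2 to CCAAT, that of ANLN held 2 and 0, that of BUB1 held 0 and 2, and that of KIF4A held 1 of each. The promoter table had windows for 33 of the 40 members, and 23 of these members had TTTGAA in at least 1 window of 250 bases before to 50 after a start, while 27 had CCAAT. By window, TTTGAA was found in 57.8% of the members' 45 windows, against 15.2% of all 35116 windows, and CCAAT in 71.1%, against 34.6%. Of the 20 members with a window that lay below the vector in both miR-146a arrays, 15 had TTTGAA and 17 had CCAAT, and of the 4 that were higher in both, 2 had TTTGAA and 3 had CCAAT. These counts describe letters in a window and were not used in any comparison below.

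Mitosis and spindle genes differed little from the vector in the miR-146a arrays, as did most genes, and more of them were lower than higher. Of the 40 members, 22 had a value below that of the vector in each of the miR-146a arrays (called lower in both arrays from here on), where 28.8% of all genes kept were, and 8 were higher in both, where 40.2% of all genes kept were. The remaining 10 members had the vector value between or equal to those of the miR-146a arrays. Mean log2 differences (miR-146a minus vector) ran from -0.33 for BUB1 to 0.17 for FOXM1, and 23 members (57.5%) lay within 0.1 of the vector, near the 53.1% of all genes kept. Their median was -0.07 (-0.07 in replicate 1 and -0.05 in replicate 2), beside a median of 0.01 over all genes kept. Both replicates were set against the same vector array, so their directions are not independent.

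With Benjamini-Hochberg adjustment over the 12444 genes kept, limma called 0 members lower and 0 higher at a threshold of 0.05, and 0% of all genes. At an unadjusted p under 0.05 there were 7 members lower and 1 higher, where 9% of all genes were lower and 14.6% higher. This test rests on 1 residual degree of freedom, and genes whose 2 miR-146a values are exactly equal get very small errors in it. When the prior for the variance was estimated only from genes with unequal miR-146a values, 1 member (2.5%), BUB1, passed as lower and 0 as higher, where 2.36% of all genes passed as lower and 4.76% as higher. The gap between the 2 miR-146a arrays was 0.06 at the median of the members and 0.21 at most, and the mean difference was larger than this gap for 20 members that were lower and 6 that were higher, where 27.3% and 33.8% of all genes were. At a size of 1.2-fold in both arrays there was 1 member, BUB1, which was lower, and 0 that were higher, where 2.9% of all genes were lower and 5.97% higher.

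**Figure D1:**
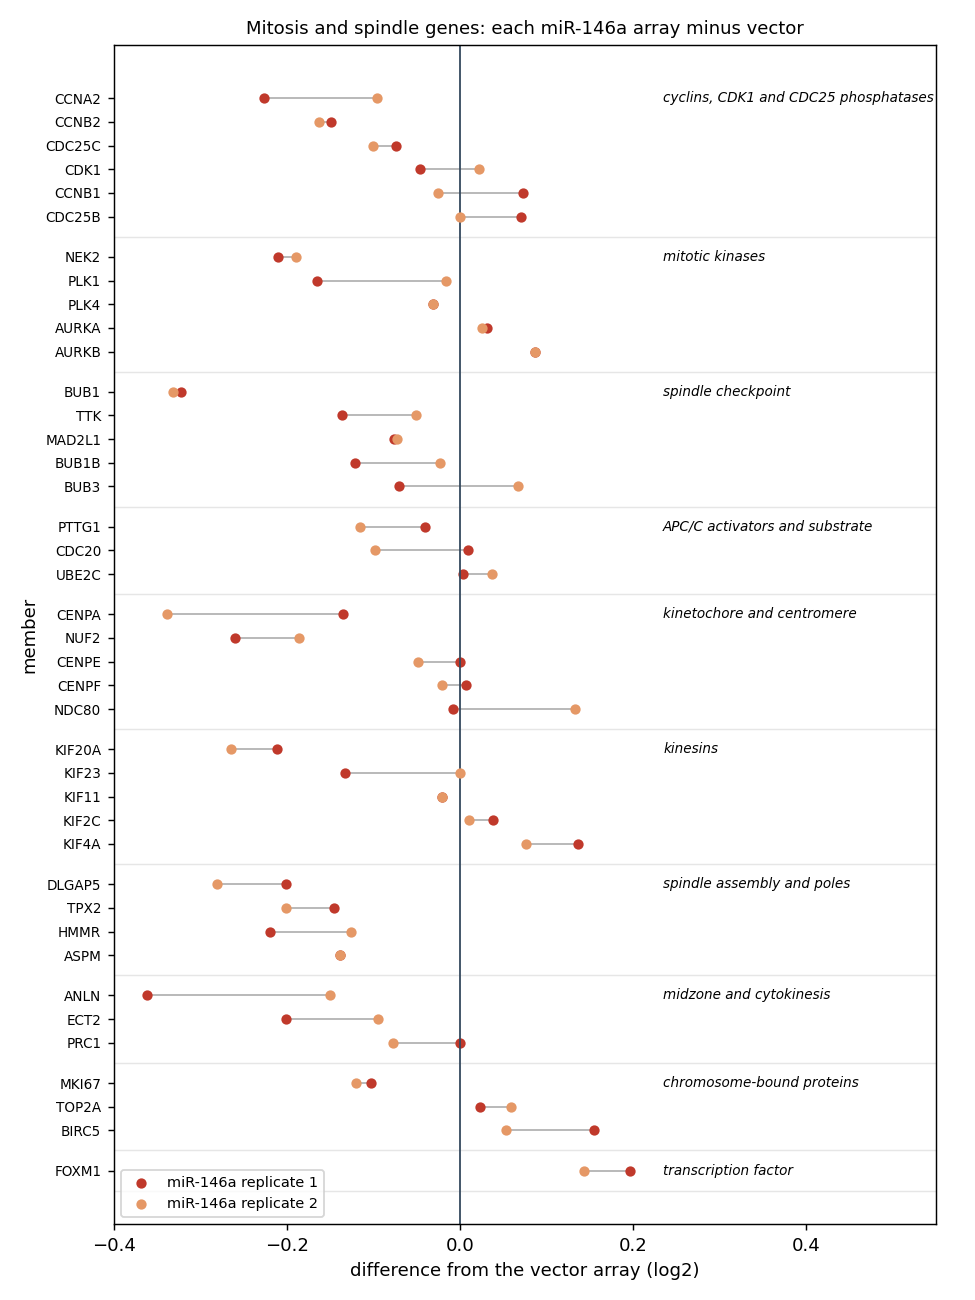
Differences from the vector array on the log2 scale (horizontal axis) for the 40 members (rows, grouped by role, the probe set used for each). Each point is 1 miR-146a array minus vector, replicate 1 in dark red and replicate 2 in orange, joined by a grey line, and the vertical line marks the vector. All 4 genes grouped under spindle assembly and poles lie left of the vector (28.8% of all genes kept were lower in both arrays). By mean difference, BUB1 is lowest at -0.33 and FOXM1 highest at 0.17.

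Among the cyclins, CDK1 and the CDC25 phosphatases, 3 of 6 members were lower in both arrays and 0 were higher in both. The shares of all genes kept were 28.8% lower and 40.2% higher. CCNB1, the cyclin that activates CDK1 at mitotic entry, read 11.23 and 11.13 on the log2 scale in the miR-146a arrays, against 11.16 in the vector array. CDK1 itself read 11.27 and 11.34 in the miR-146a arrays, against 11.32 in the vector array. For both genes the vector value lay between those of the 2 miR-146a arrays (limma adjusted p = 0.872 for CCNB1 and 0.913 for CDK1). CCNB2, the second B-type cyclin, read 11.32 and 11.31 in the miR-146a arrays, against 11.47 in the vector array, a mean difference of -0.16 that did not pass limma (adjusted p = 0.132). CCNA2, which acts in S phase and G2, differed by -0.16 and CDC25C by -0.09, whereas CDC25B differed by 0.04, with a replicate 2 value equal to the vector.

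The mitotic kinases did not go one way. NEK2, a centrosomal kinase that loosens the link between centrosomes, read 10.15 and 10.17 in the miR-146a arrays, against 10.36 in the vector array. Its mean difference was -0.20, or 1.15-fold lower (limma adjusted p = 0.137). PLK1, the main Polo-like kinase of mitosis, read 8.66 and 8.81 in the miR-146a arrays, against 8.83 in the vector array, so that replicate 2 lay 0.02 below the vector and the SD of the miR-146a arrays (0.11, n = 2) exceeded the mean difference of -0.09 (limma adjusted p = 0.734). PLK4, which starts centriole duplication, read 8.70 in both miR-146a arrays, against 8.73 in the vector array (limma adjusted p = 0.266). AURKB, the kinase of the chromosomal passenger complex, read 8.66 in both miR-146a arrays, against 8.57 in the vector array. AURKA, the spindle pole kinase, read 11.09 in both miR-146a arrays, against 11.06 in the vector array. On the probe sets used, the miR-146a arrays thus lay above the vector for both Aurora kinases, by 0.09 for AURKB and 0.03 for AURKA. Neither passed limma (adjusted p = 0.14 and 0.319). The other probe set above the filter was lower in both arrays for AURKA (-0.08) and higher in both for AURKB (0.41).

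On the probe sets used, the spindle checkpoint held the member furthest from the vector. BUB1, a kinase that recruits checkpoint proteins to unattached kinetochores, read 9.15 and 9.14 in the miR-146a arrays, against 9.47 in the vector array. It was 1.25-fold lower, and the SD of the 2 miR-146a values was 0.01. Its limma adjusted p was 0.118 and became 0.0415 with the prior from unequal replicates (SE 0.086). Over the settings tried with 1 value a gene, this p ran from 0.0415 to 0.196. BUB1B (BubR1), which inhibits the anaphase-promoting complex, differed by -0.07, TTK (MPS1), the kinase that starts checkpoint signalling, by -0.09, and MAD2L1, which binds CDC20, by -0.07. These 3 were lower in both arrays and BUB3, the partner of BUB1 and BUB1B, was not, with 11.53 and 11.66 in the miR-146a arrays, against 11.60 in the vector array. Counting BUB1, 4 of 5 checkpoint members were lower in both arrays and 0 higher in both, beside 28.8% and 40.2% of all genes kept.

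The genes that trigger anaphase had mean differences within 0.1 of the vector. CDC20, the activator of the anaphase-promoting complex, read 11.08 and 10.97 in the miR-146a arrays, against 11.07 in the vector array. UBE2C, the ubiquitin-conjugating enzyme of that complex, read 11.63 and 11.67 in the miR-146a arrays, against 11.63 in the vector array. PTTG1 (securin), the inhibitor of separase, differed by -0.08 (-0.04 in replicate 1 and -0.12 in replicate 2). The identifier of its probe set marks it as one whose probes may match other transcripts, as do those of the probe sets used for FOXM1 and CENPA.

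At the kinetochore and centromere, 2 of 5 members were lower in both arrays and 0 were higher in both, beside 28.8% and 40.2% of all genes kept. NUF2, a subunit of the NDC80 complex that holds microtubules, read 8.44 and 8.51 in the miR-146a arrays, against 8.70 in the vector array, 1.17-fold lower (limma adjusted p = 0.264). NDC80, its partner subunit, read 9.54 and 9.68 in the miR-146a arrays, against 9.55 in the vector array. The 2 partners thus did not share a direction in both arrays. CENPA, the centromeric histone H3 variant, differed by -0.24, with replicate values of -0.14 and -0.34 that were further apart than those of most members. CENPE, a kinetochore motor, and CENPF differed by -0.02 and -0.01.

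Of the 5 kinesins, 2 were lower and 2 higher in both arrays, beside 28.8% and 40.2% of all genes kept. KIF20A (MKLP2), a motor of the central spindle, read 8.89 and 8.84 in the miR-146a arrays, against 9.10 in the vector array, 1.18-fold lower (limma adjusted p = 0.197). KIF4A, which works with PRC1 in the midzone, read 9.55 and 9.49 in the miR-146a arrays, against 9.41 in the vector array, 1.08-fold higher (limma adjusted p = 0.389). KIF11 (Eg5), the motor that pushes spindle poles apart, lay 0.02 below the vector in both arrays, and KIF23, a cytokinesis motor, differed by -0.07. KIF2C, a microtubule depolymerase, read 10.49 and 10.46 in the miR-146a arrays, against 10.45 in the vector array (limma adjusted p = 0.652).

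All 4 members grouped here under spindle assembly and poles were lower in both arrays, where 28.8% of all genes kept were. Members grouped elsewhere also act at spindle poles, such as AURKA (0.03, higher in both arrays) and KIF11 (-0.02, lower in both). DLGAP5 (HURP), which stabilises kinetochore fibres, read 9.56 and 9.48 in the miR-146a arrays, against 9.76 in the vector array, 1.18-fold lower (limma adjusted p = 0.263). TPX2, the activator of Aurora A on the spindle, and HMMR, a spindle pole protein, each differed by -0.17, and ASPM, a spindle pole protein needed in neural progenitors, by -0.14. ASPM had equal values in the 2 miR-146a arrays and passed limma only with a robust prior (adjusted p = 0.047), a setting that called 1.62% of all genes lower and 3.48% higher. Of the midzone and cytokinesis genes, ANLN (anillin), a scaffold of the contractile ring, read 10.43 and 10.64 in the miR-146a arrays, against 10.79 in the vector array. Both of its miR-146a values lay below the vector, but they were 0.21 apart (limma adjusted p = 0.508). This was the widest gap of any member on the probe sets used. ECT2, which activates RhoA at the furrow, differed by -0.15, and PRC1, the bundler of midzone microtubules, by -0.04, with replicate 1 equal to the vector.

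MKI67 (Ki-67), the surface protein of mitotic chromosomes used as a proliferation marker, read 9.94 and 9.93 in the miR-146a arrays, against 10.05 in the vector array, a difference of -0.11 (limma adjusted p = 0.17). BIRC5 (survivin), a passenger complex subunit, read 10.49 and 10.39 in the miR-146a arrays, against 10.34 in the vector array. TOP2A, the topoisomerase that untangles sister chromatids, read 11.86 and 11.89 in the miR-146a arrays, against 11.83 in the vector array. On the probe sets used, these 2 were thus higher in both arrays, by 0.10 for BIRC5 and 0.04 for TOP2A, without passing limma (adjusted p = 0.567 and 0.531). Their other probe sets above the filter differed by 0.07, -0.13 and -0.19 for BIRC5 and by -0.11 and -1.22 for TOP2A. FOXM1, the transcription factor of G2 genes, read 10.43 and 10.38 in the miR-146a arrays, against 10.24 in the vector array. It was 1.13-fold higher, the highest of the 40 members on the probe sets used. FOXM1 did not pass limma (adjusted p = 0.253) or the test with the prior from unequal replicates (adjusted p = 0.295).

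**Figure D2:**
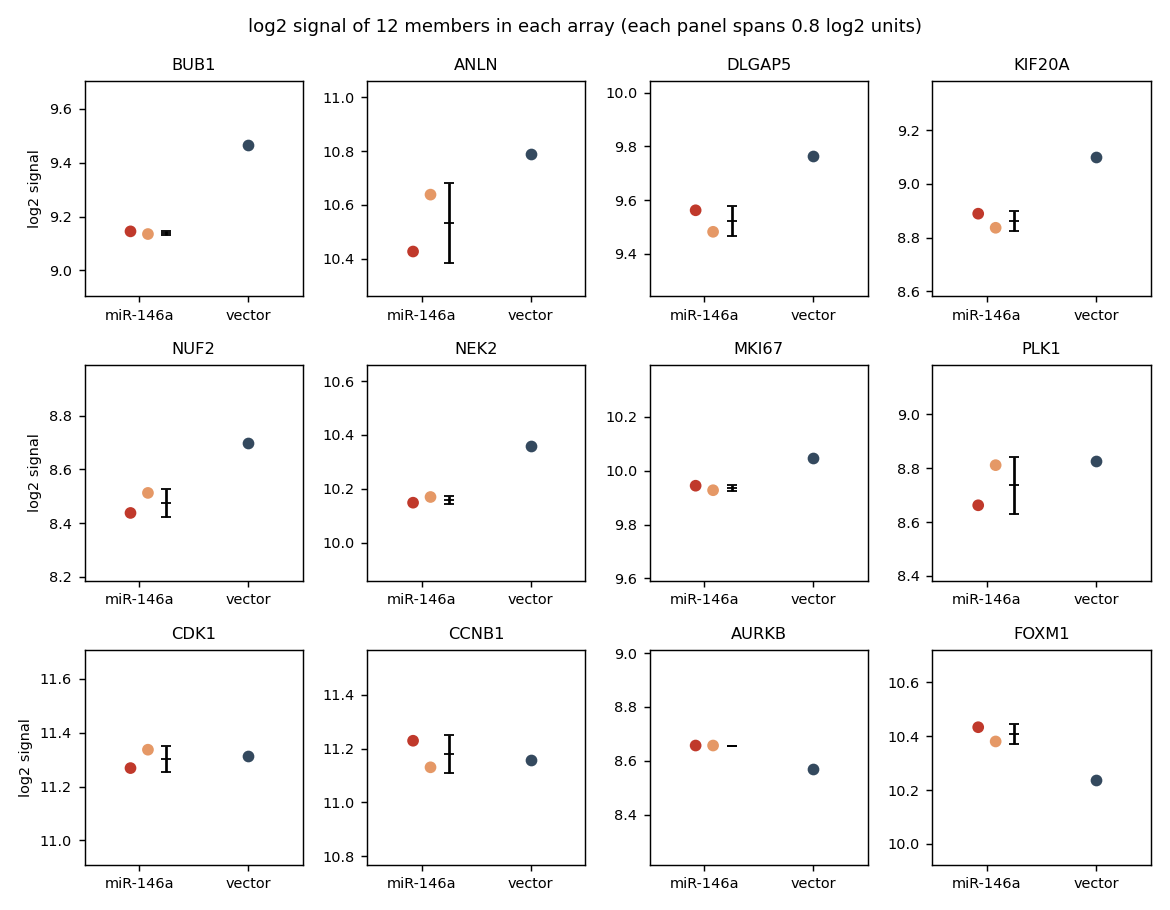
log2 signal (vertical axis) of 12 members in the miR-146a arrays (replicate 1 dark red, replicate 2 orange, with their mean ± SD in black) and in the single vector array (blue). In the top row and for NUF2, NEK2 and MKI67 both miR-146a points lie below the vector, for CDK1 and CCNB1 the vector lies between them, and for AURKB and FOXM1 both lie above it.

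The sizes above depend on which probe set reads a gene. Above the filter lay 74 of the 84 probe sets, and 22 members had more than 1. In 9 of these, ANLN, ASPM, BUB1, CCNA2, CDC25C, ECT2, HMMR, MAD2L1 and NEK2, every probe set above the filter was lower in both arrays, and in 1, AURKB, every one was higher. In 7, AURKA, BIRC5, BUB3, KIF2C, MKI67, PLK4 and TOP2A, at least 1 probe set was lower in both arrays and at least 1 other higher in both. These counts by gene were not made over all genes with several probe sets, so they have no share to be read against. Counted singly, 43 of the 74 probe sets were lower in both arrays and 17 higher, where 32.6% and 36.7% of all 22580 such probe sets were.

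For several members the other probe set gave a larger difference than the one used. BUB1 stood at a difference of -0.63 on its other probe set above the filter (6.37 and 6.44 in the miR-146a arrays, against 7.03 in the vector array), or 1.54-fold lower. ANLN stood at -0.55 (8.65 and 8.70 in the miR-146a arrays, against 9.23 in the vector array), or 1.47-fold lower. CDK1, level on the probe set used, stood at -0.27 and -0.35 on its other 2. CENPF, also level on the probe set used, stood at 0.23 and 0.24 on its other 2. The one at 0.23 was near the filter of 5.13, with a vector value of 5.12, below it. Its miR-146a values were 5.23 and 5.46, so it passed the filter through the miR-146a arrays. For AURKB the other probe set stood at 6.03 and 5.95 in the miR-146a arrays, against 5.58 in the vector array, 1.33-fold higher. TOP2A had a probe set at 6.24 and 6.37 in the miR-146a arrays, against 7.52 in the vector array, 2.33-fold lower, while its others differed by 0.04 and -0.11. A size of 2-fold or more below the vector, reached in both arrays, was seen in 0.0266% of all probe sets above the filter. The table links this one to TOP2A without saying which part of the gene it reads. MKI67 was split, with 2 probe sets at -0.11 and -0.15 and 2 at 0.14 and 0.16. The second probe sets of KIF2C (-0.25), AURKA (-0.08) and PLK4 (0.09) lay on the other side of the vector from the ones used.

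With the prior from unequal replicates, 11 of the members' 74 probe sets passed as lower and 1 as higher, where 4.68% and 4.44% of all probe sets did. The 11 lay in BUB1 (2), ANLN, ASPM, CCNA2, CDC25C, CDK1, KIF23, MAD2L1, NEK2 and TOP2A, and the 1 that was higher in AURKB. Of these 12 probe sets only 1, of BUB1, was the one used for its gene. The 34 probe sets of members that were above the filter and not used had a median difference of -0.15 (-0.14 in each replicate), beside -0.00408 for all 10136 such probe sets, and 21 of them were lower in both arrays and 9 higher, where 37.2% and 32.4% of all such probe sets were.

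The control probe sets for the 5′ ends of ACTB and GAPDH were also lower in both miR-146a arrays. For GAPDH the 5′ probe set read 12.90 and 12.93 in the miR-146a arrays, against 13.23 in the vector array, and the 3′ one 13.95 and 13.96, against 13.97. The log2 excess of 3′ over 5′ signal was 1.04 and 1.03 in the miR-146a arrays, against 0.75 in the vector array, for GAPDH, and 2.07 and 1.95, against 1.73, for ACTB. The positions of the members' probe sets along their transcripts were not analysed here, and the part of this shift in the members' differences was not tested.

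**Figure D3:**
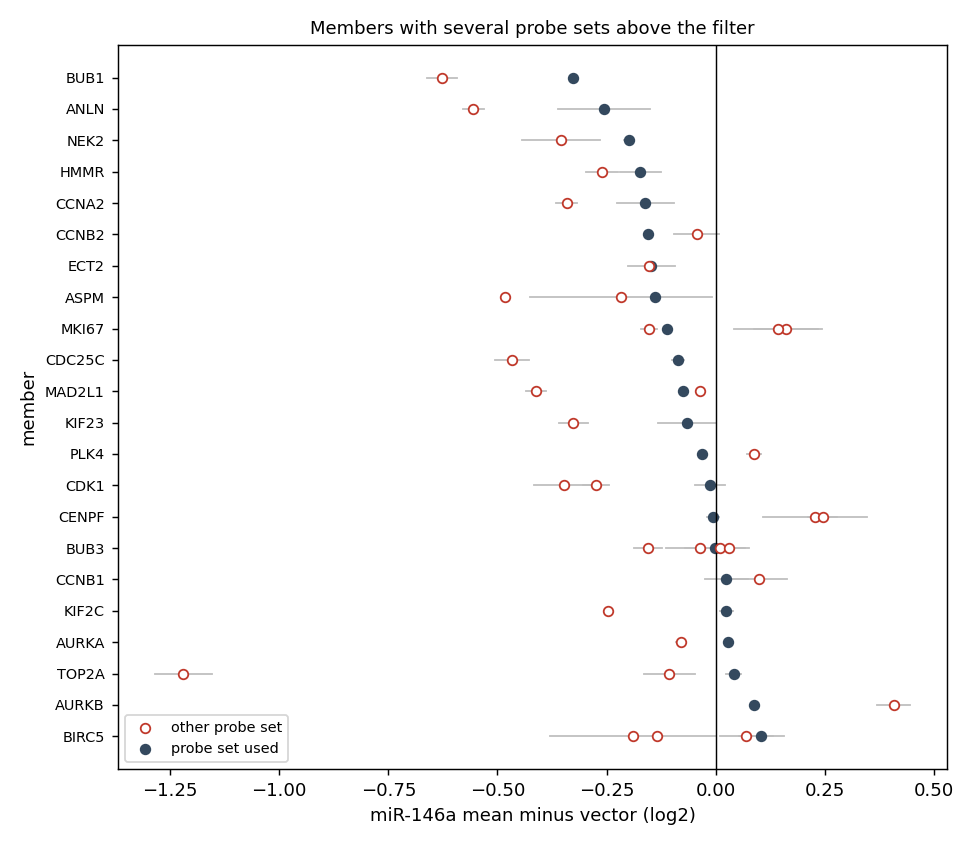
Mean difference of miR-146a minus vector on the log2 scale (horizontal axis) for every probe set above the filter of the 22 members with more than 1 (rows). Filled blue points are the probe sets used, open red points the others, and grey lines join the values of replicates 1 and 2. Open points lie left of the filled one for BUB1, ANLN, NEK2, CCNA2, CDC25C, KIF23 and CDK1, the lowest is a TOP2A probe set at -1.22, and the other AURKB probe set lies furthest right at 0.41.

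Other genes of the mitotic machinery were read from 7 further lists holding 139 genes, of which 133 were kept. Of these, 33 (24.8%) were lower and 64 (48.1%) higher in both arrays, beside 28.8% and 40.2% of all genes kept, and their median difference was 0.03, beside 0.01. No gene of them passed limma over all genes, and 8 lower (6.02%) and 19 higher (14.3%) had an unadjusted p under 0.05, where 9% and 14.6% of all genes did. With the prior from unequal replicates 1 passed as lower (0.752%) and 3 as higher (2.26%), below the 2.36% and 4.76% of all genes. The 1 that was lower was CEP152, a centriole protein (-0.37), and the 3 that were higher were SKA3, which couples kinetochores to microtubules (0.37), MAD1L1, the kinetochore platform for MAD2 (0.37), and CDC25A, a phosphatase acting at the G1/S and G2/M steps (0.38). Of 30 other kinetochore and centromere genes, 3 were lower and 17 higher in both arrays, and of 15 subunits and regulators of the anaphase-promoting complex, 1 was lower and 10 higher. Of 25 other spindle motors and microtubule-associated proteins, 7 were lower and 10 higher in both arrays. The all-gene shares for these counts are again 28.8% lower and 40.2% higher. In the list of other cytokinesis and passenger complex genes 7 of 10 were lower in both arrays and 1 was higher, with RHOA at -0.24 and CEP55 at -0.14. The difference between the members and these lists was not tested.

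Among the regulators that act upstream, 4 of 20 genes of the MuvB, B-MYB and pocket protein list were lower (20%) and 9 higher (45%) in both arrays, near the 28.8% and 40.2% of all genes kept. With the prior from unequal replicates 5 passed as higher (25%), where 4.76% of all genes did. E2F1 read 8.89 and 8.78 in the miR-146a arrays, against 8.38 in the vector array, 1.37-fold higher, E2F2 was 1.32-fold higher and LIN37, a MuvB subunit, 1.29-fold higher. Of 7 genes kept from a list of genes named as CDK inhibitors, 4 were lower and 2 higher in both arrays and 0 passed either test. CDKN3 stood at -0.20, CDKN1B (p27) at -0.18 and CDKN2A at 0.16. The name was taken as given, without regard to how each product acts. The G1/S and DNA replication list, which shares no gene with the members, had 1 of 30 genes lower (3.33%) and 27 higher (90%) in both arrays, beside 28.8% and 40.2% of all genes kept, and a median difference of 0.16. With the prior from unequal replicates 3 passed as higher (10%), where 4.76% of all genes did. These were MCM10 (1.32-fold), CCNE1 (1.32-fold) and CCND1 (1.27-fold). Set side by side, the mitotic members had a median below that of all genes kept and the G1/S genes a median above it.

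**Figure D4:**
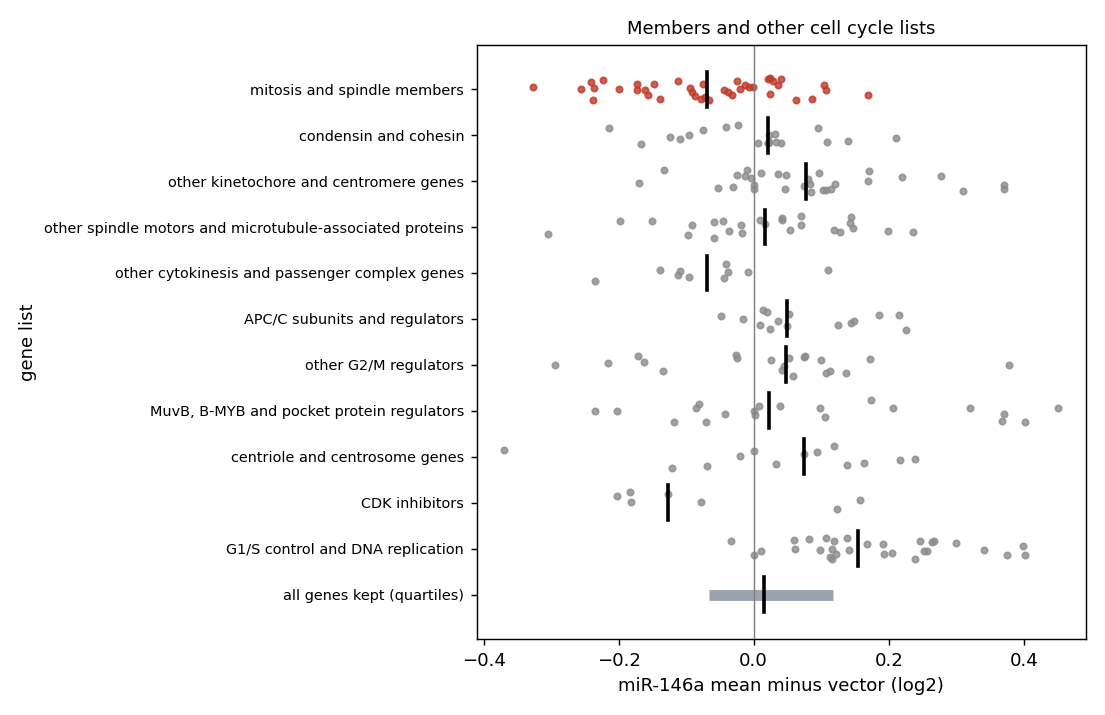
Mean difference of miR-146a minus vector on the log2 scale (horizontal axis) for the genes of each list (rows, 1 point a gene, spread vertically for legibility), with the members in red, black bars at the medians and, in the bottom row, the quartiles of all genes kept. The members' median is -0.07, that of the G1/S list 0.16 and that of all genes 0.01.

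As a check of the label colon cancer cells, all 11 colon epithelial markers, EPCAM, KRT8 and VIL1 among them, were above the filter. Of the markers of other cells, 3 of 7 for fibroblasts (COL1A1, DCN and THY1), 3 of 6 measured for leukocytes (CD14, ITGAM and LYZ) and 1 of 5 for endothelium (PECAM1) were above it. Summed log2 signals were 114.02 and 113.84 in the miR-146a arrays, against 114.83 in the vector array, for the epithelial list. They were 33.41 and 33.85, against 34.00, for the fibroblast list, 37.49 and 37.22, against 37.68, for the leukocyte list, and 21.57 and 21.77, against 21.60, for the endothelial list. In both arrays 6 epithelial markers lay below the vector and 4 above it, and the median difference of that list was -0.06. The cadherin CDH17 was 1.46-fold lower and passed with the prior from unequal replicates (adjusted p = 0.00592) but not in limma (adjusted p = 0.222). Its signal was near the filter of 5.13, at 5.39 and 5.24 in the miR-146a arrays, against 5.86 in the vector array. The part of these signals in the members' differences was not tested.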

How the data were processed

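Total RNA of transduced HT29 cells was hybridised as biotinylated cRNA to Affymetrix arrays, 1 sample an array. The authors' deposited log2 values were made with RMA, per the submitters' processing notes, which state no version. From these values, a gene was read by the brightest of its probe sets on average, and named through the platform annotation with symbols updated by Entrez number, and genes above the median signal were kept. Of 54613 probe sets besides controls, 41091 had 1 gene, 1801 several and the rest none here. Differences are miR-146a mean minus vector, and each SD is over those 2 miR-146a values. The fit was limma 3.58.1 in R 4.3.3 on all 12444 genes, two-sided, adjusted by Benjamini-Hochberg at 0.05. It was also run on simulated data. These held no genes with equal miR-146a values, so that run cannot show how the fit behaves with such genes. The number of arrays limits the precision. A variance prior from genes with unequal miR-146a values, a robust prior, an intensity trend, other filters, probe set averages and 2 added normalizations were alternatives.

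Members described in full were MKI67, FOXM1, CCNB1, CDK1 and PLK1, 6 members at each end, ranked on whichever of 2 same-signed array differences is smaller, and those whose probe sets differ in sign in both arrays. Up to 3 genes of each other list were named by the same measure. The members, lists and tests were chosen with earlier results of these data known. Promoter and microRNA sequences are from RefSeq. Figures were drawn with matplotlib 3.10.9.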

Additional observations from a re-analysis of the deposited data

How the results depend on the processing

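Limits: 3 arrays, 1 of them the only control, and a spread estimated from 1 pair. No paired analysis was possible because there was only 1 vector array and no label pairs it with a miR-146a array. No member was called by limma with probe sets averaged, with every probe set tested separately, without a filter, with a filter at percentile 70, with an intensity trend, or with cyclic loess or quantile normalization on top. The prior from genes with unequal miR-146a values called 1 (BUB1) and the robust prior called 1 (ASPM, whose 2 miR-146a values are equal, adjusted p = 0.047), where they called 2.36% and 1.62% of all genes lower and 4.76% and 3.48% higher. Members lower in both arrays numbered 22 to 26 of 40 and those higher 7 to 10 over the settings with 1 value a gene. In the main setting 28.8% of all genes kept were lower and 40.2% higher. These shares were not counted anew in the alternatives with 1 value a gene. With every probe set counted, 43 and 17 of the members' 74 were lower and higher, where 32.6% and 36.7% of all probe sets above the filter were. In a single array left after leaving out either replicate, 26 to 27 members were lower and 11 to 12 higher. The shares of all genes lower or higher in a single array were not counted. The median member difference there was -0.072 to -0.050, beside 0.012 to 0 over all genes kept. Quantile normalization on top moved the median member difference over both arrays to -0.052. With all of a gene's probe sets averaged, the difference changed sign for MKI67 (0.0097), BIRC5 (-0.038), TOP2A (-0.43) and KIF2C (-0.11), by construction, since probe sets on the other side of the vector enter the average.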
